A study of Mus musculus with 4 samples.

Results

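Genes of the deubiquitinase families other than the ubiquitin-specific proteases (USPs) were examined in colon-labelled RNA of mice with and without the deubiquitinase Usp25. A fixed list of 31 symbols was matched to the Gene column, and all 31 were found among the 24421 genes listed in each library. The list holds 13 genes of the ovarian tumour (OTU) family, 4 of the ubiquitin C-terminal hydrolase (UCH) family, 3 of the Machado-Joseph disease (MJD) family, 10 with a JAMM-type domain, and Cyld. Poly(A) RNA was sequenced from 4 C57BL/6 mice, labelled as females aged 8 weeks that received 2.5% dextran sulfate sodium (DSS), which injures the colon epithelium, for 5 days and plain water for 2 days. Of these, 2 carried intact Usp25 (Usp25+/+, animals 139 and 140) and 2 lacked it (Usp25-/-, animals 826 and 850), so all 4 had the labelled DSS exposure and no untreated animal was analysed here. How the deletion was made is not stated by the labels. Expression is given in FPKM, fragments scaled to transcript length and to the mapped total, which allows levels of different genes to be compared per length, and the read depth behind the values is unknown.

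Ubiquitin is a small protein that cells attach to other proteins, singly or in chains, and deubiquitinases remove it. OTU, UCH and MJD enzymes are cysteine proteases, while active JAMM proteins are zinc metalloproteases and several JAMM-type proteins are structural subunits without activity. In injured mucosa the family is best known for A20, the product of Tnfaip3, and CYLD, which both restrain NF-kB signalling from tumour necrosis factor and Toll-like receptors. CYLD is kept in the list although its catalytic fold is a divergent USP fold.

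The libraries went against their labels in tissue and sex, so the values below are given by labelled genotype and not as measurements of female colon. Of 10 colonocyte and goblet cell genes, 8 were too low to be tested, and Aqp8 and Cdx1 were listed at 0 in all 4 libraries. The library medians of the 10 lay between 0 and 0.143 FPKM, with Krt20 and Lgals4 the exceptions. Krt20 was listed at 4.31 and 3.11 FPKM in 139 and 140, and at 52.4 and 7.35 FPKM in 826 and 850. Lgals4 was listed at 7.04 and 9.83 FPKM in the former and at 70.6 and 28.8 FPKM in the latter. Both genes were higher in both Usp25-/- libraries, and neither passed the test described below. The 8 lung epithelial genes had library medians of 124 to 179 FPKM. The Y-linked gene Ddx3y ranged from 12.7 to 30.3 FPKM, while Xist did not exceed 0.110 FPKM. Usp25 itself followed the genotype labels, with 38.5 (animal 139) and 16.6 FPKM (140) in Usp25+/+ mice and 2.65 (826) and 1.71 FPKM (850) in Usp25-/- mice. Animal 139 stood apart, with 20556 genes above 0 against 15603 to 17242 elsewhere and with 10 neutrophil genes summing to 41322 FPKM against 736, 2099 and 1238 FPKM in 140, 826 and 850. Members and the medians of lists were therefore also fitted without 139, but single genes outside the family are given with all 4 libraries. Fewer cells of a type and less RNA per cell cannot be told apart in such bulk samples.

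The family was expressed over a wide range of levels, and most of its members were moderately abundant. In order of the mean of the 4 libraries, Tnfaip3 (248 FPKM), Eif3h (164 FPKM), Eif3f (110 FPKM), Cops6 (52.9 FPKM), Uchl3 (36.6 FPKM), Cops5 (33.5 FPKM) and Otub1 (33.1 FPKM) came first. Neighbours in the order of all 31 overlapped in their range over the 4 libraries, except Eif3f and Cops6, Otub1 and Mpnd, and Otub2 and Otud7a. Below, a pair of levels in 139 and 140 is set against the pair in 826 and 850. Yod1 (0.978 FPKM), Otub2 (0.768 FPKM) and Otud7a (0.0216 FPKM) were last, and these 3 did not reach the mean of 1 FPKM required for testing, which left 28 members tested. Eif3h was the most abundant member in 140, 826 and 850 at 188, 192 and 152 FPKM. In 139 that place was held by Tnfaip3.

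**Figure D1:**
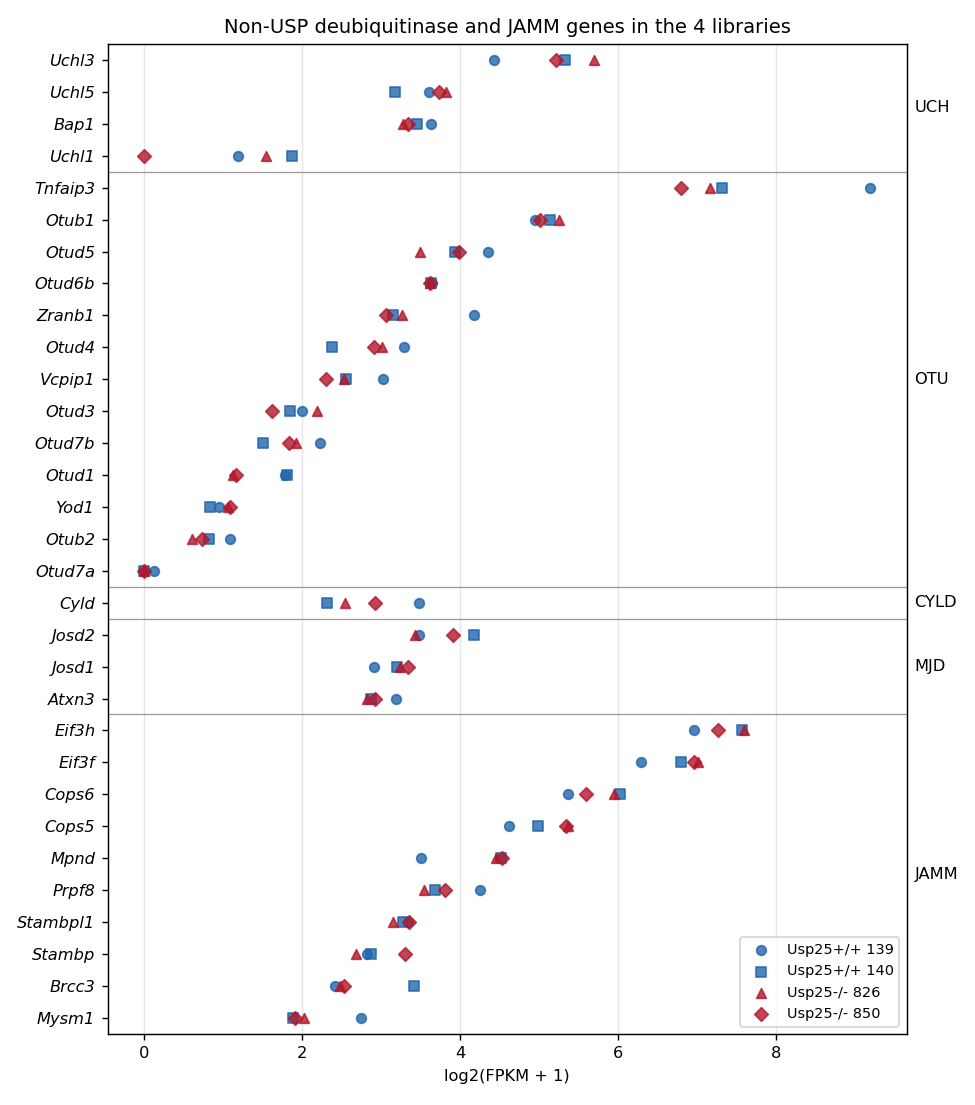
Level of each of the 31 genes in the 4 libraries, on a log2(FPKM + 1) axis, grouped by family and ordered by mean; blue marks are Usp25+/+ and red marks Usp25-/-. Tnfaip3 in animal 139 (582 FPKM) is the highest value, and Otud7a and Uchl1 are the members listed at 0 in at least 1 library.

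No member passed the test between the genotypes. Limma on log2(FPKM + 1), with Benjamini-Hochberg adjustment over 12011 genes, called 0 of 28 members at an adjusted p of 0.05, where percent called over all tested genes was 0. At an unadjusted limma p of 0.05 it reached 0 of 28 members against 3.12% of all tested genes, and the smallest value was 0.0900, for Otud1. The adjustment gave the same 0.960 to genes with unlike limma p, such as Otud1 at 0.0900 and Bap1 at 0.427. That value therefore does not rank genes. Usp25 itself was not called after adjustment either. Its log2 fold change (Usp25-/- over Usp25+/+) was -3.07 (SE 0.47), without overlap between the genotypes. The adjusted test thus missed even the gene that followed the genotype labels, so the lack of calls in the family says little. A p above the threshold does not show that the genotypes were alike, and an exact permutation test of 2 against 2 animals cannot reach 0.05. The median log2 fold change (Usp25-/- over Usp25+/+) of the 28 was -0.04, beside 0.03 over all tested genes. Of the 28, 12 had a positive value and 16 a negative value, where 53.5% of all tested genes were positive.

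No overlap between the genotypes was seen in 9 of the 28 members (32.1%), close to the 33.8% of all tested genes. The Usp25-/- libraries stood higher in 4 of them, Cops5, Eif3f, Uchl5 and Josd1, where the background was 19.0%. They stood lower in 5, Tnfaip3, Otud1, Vcpip1, Bap1 and Otud6b, where the background was 14.7%. An absolute log2 fold change of at least 0.5 was seen in 6 members. Tnfaip3, Uchl1, Otud1 and Zranb1 lay at or below -0.5 (14.3% of members, 12.3% of all genes), and Uchl3 and Cops5 at or above 0.5 (7.14% of members, 13.5% of all genes). Both shares of non-overlapping members lay near the background.

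**Figure D2:**
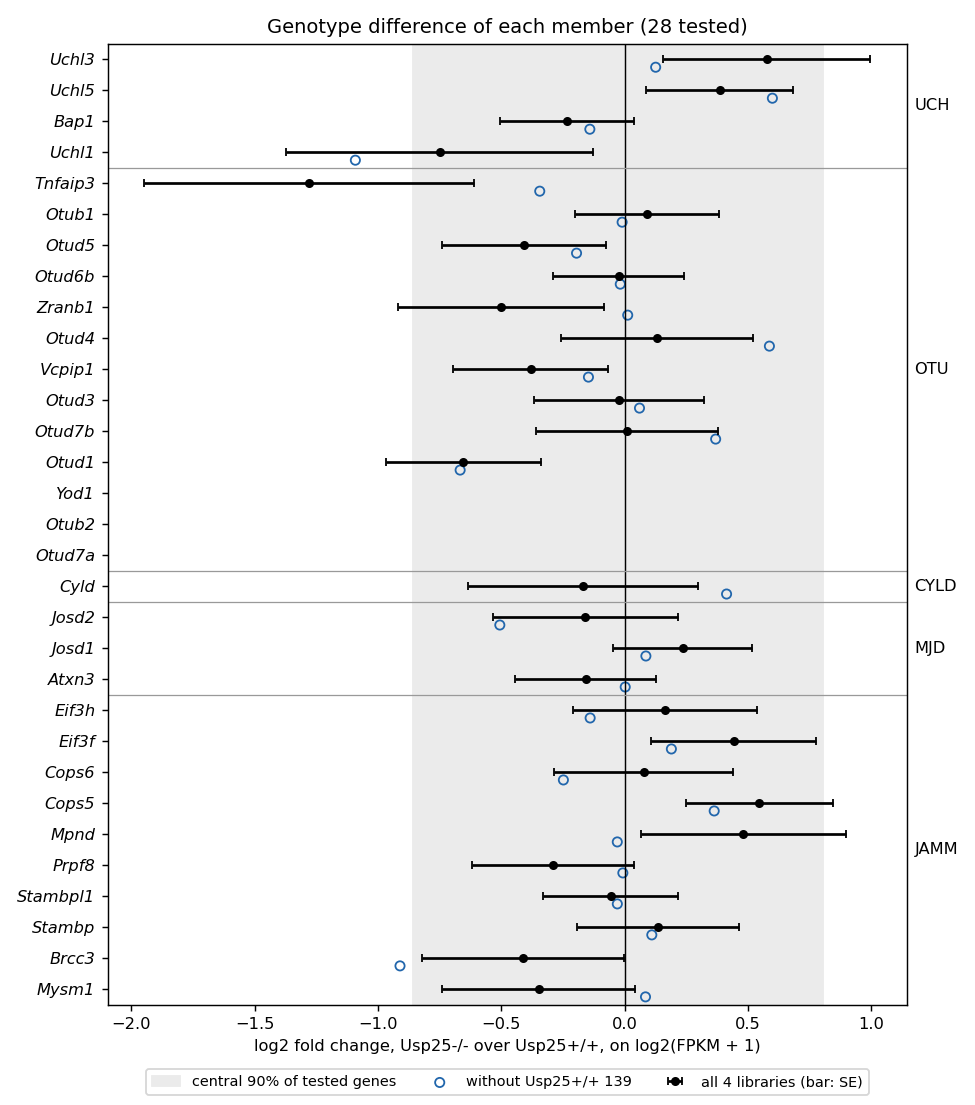
Log2 fold change of the 28 tested members, Usp25-/- over Usp25+/+, on log2(FPKM + 1); black points are the fit to all 4 libraries with bars of 1 standard error, open circles are the fit without animal 139, and the grey band holds the central 90% of all tested genes (-0.86 to 0.80). Tnfaip3 lies outside the band at -1.28 and returns to -0.34 without animal 139.

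The UCH family held both an almost silent gene and an abundant gene. Uchl1, a neuronal and neuroendocrine enzyme that binds free ubiquitin, had 1.27 FPKM in 139, 2.64 FPKM in 140, 1.92 FPKM in 826 and 0 FPKM in 850. Only 850 was at 0, and the genotypes overlapped. Its log2 fold change was -0.75 (SE 0.62; limma adjusted p = 0.960), and without 850 it was 0.02. At this low level it also depended on the pseudocount added before the logarithm, at -2.11 with 0.1 and -0.23 with 5. The gene lies on mm9 chromosome 5 between bases 67067360 and 67078472, and 18.7% of its exon bases are shared with Gm16832 on the opposite strand, which unstranded reads cannot separate. The 12 neuroendocrine and neuronal markers had library medians of 0.207 to 0.400 FPKM, 9 of them under the test filter. Chga did not exceed 0.402 FPKM, while Tubb3 (5.43 to 13.3 FPKM), Stmn2 (1.24 to 7.73 FPKM) and Calca (0.704 to 4.77 FPKM) passed the filter.

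Uchl3, which cleaves the C termini of ubiquitin and of NEDD8, was the most abundant UCH gene. It was listed at 20.5 and 39.1 FPKM in 139 and 140 and at 50.7 and 36.0 FPKM in 826 and 850. Animal 139 was lowest, and 140 lay between the Usp25-/- libraries. The means were 29.8 ± 13.2 and 43.4 ± 10.4 FPKM (SD, n = 2 each), and the log2 fold change was 0.58 (SE 0.42), or 0.13 without 139 and 1.02 without 140. A copy of Uchl3 with 97.5% identity over 90.6% of a transcript lies on mm9 chromosome 9 in Uchl4, so reads may have been split between them. Uchl4 was listed at 1.53, 0.991, 1.61 and 1.81 FPKM in 139, 140, 826 and 850, far under Uchl3 in each library.

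Uchl5, the UCH37 enzyme of the proteasome and of the INO80 complex, was listed at 11.1 and 8.02 against 13.1 and 12.2 FPKM. Both Usp25-/- libraries stood above both Usp25+/+ libraries, a difference of 0.38 on log2(FPKM + 1) (SE 0.30; limma adjusted p = 0.960). It was 0.60 without 139 and 0.17 without 140. Adrm1, which anchors UCH37 to the proteasome, ran otherwise, at 21.9 and 50.3 against 41.6 and 35.3 FPKM. Among 9 genes of its partners, 6 had positive and 3 negative log2 fold changes (median 0.18), and 0 passed limma. That median was 0.29 without 140, but 0.04 without 139, 0.02 without 826 and 0.06 without 850. The largest absolute values were -0.33 for Nfrkb and 0.24 for Actr5, both of INO80.

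Bap1, a tumour suppressor that removes ubiquitin from histone H2A, was listed at 11.4 and 9.90 against 8.69 and 9.08 FPKM. The genotypes did not overlap, but the log2 fold change was only -0.23 (SE 0.27; limma adjusted p = 0.960), from -0.32 to -0.14 when any single library was left out. All 9 tested genes of its complexes also had negative values, with a median of -0.24 against 0.03 over all genes, of which 53.5% were positive. In 5 of the 9 both Usp25-/- libraries were lower, against 14.7% of all tested genes. The median of these 9 stayed between -0.27 and -0.20 when single libraries were left out. Mbd5, a methyl-CpG-binding domain protein, had the largest value at -0.84 (3.03 and 1.57 against 1.12 and 0.538 FPKM), followed by Mbd6 at -0.49. Asxl1 and Asxl2, which activate BAP1, had log2 fold changes of -0.24 and -0.18. None of these passed limma, and the smallest adjusted p of the list was 0.960.

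Tnfaip3 carried the largest difference of the family, and it rested mainly on animal 139. A20 edits ubiquitin chains on signalling proteins such as RIPK1, and its gene is a textbook NF-kB target that feeds back on the pathway. The gene lies on mm9 chromosome 10 from 18720716 to 18735463 on the minus strand. Its RefSeq promoter is shown because Tnfaip3 is the only well expressed member whose highest library exceeded the lowest by more than 3 times, as in 22.3% of all tested genes. The 250 bases before the upstream start on GRCm38.p6, minus strand, are given with matches to the NF-kB consensus in capitals.
Tnfaip3 promoter, chr10:19015411-19015660: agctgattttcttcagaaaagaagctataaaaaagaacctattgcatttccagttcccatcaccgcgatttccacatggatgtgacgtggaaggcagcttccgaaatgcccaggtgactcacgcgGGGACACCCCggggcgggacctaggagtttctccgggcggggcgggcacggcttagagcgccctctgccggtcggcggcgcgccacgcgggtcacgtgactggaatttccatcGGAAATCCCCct
The matches lie 125 to 116 and 12 to 3 bases before the start, the former on both strands and the latter on the minus strand of the printed sequence. Over both strands, 7.25% of 32851 RefSeq promoters held a match in the same 250 bases. Of 33 promoters of the 26 members found in that table, 3 did, 1 each of Tnfaip3, Cyld and Mysm1, a share near that background. The 250 bases before a second Tnfaip3 start, chr10:19011964-19012213, held 0 matches. A match of letters is no evidence of binding.

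Tnfaip3 had 582 FPKM in 139 and 158 FPKM in 140, the Usp25+/+ animals, and 142 FPKM in 826 and 110 FPKM in 850, the Usp25-/- animals. The genotypes did not overlap, but 140 lay close to 826 and only 139 was far from the rest. Among all genes it ranked 115 in 139, and 449, 530 and 600 in 140, 826 and 850. The means were 370 ± 299 and 126 ± 22.6 FPKM (SD, n = 2 each), and the log2 fold change was -1.28 (SE 0.67; limma adjusted p = 0.960). Without 139 it was -0.34, and without 140 it was -2.21. Neutrophil genes were highest in the same animal, and their part in the Tnfaip3 values was not tested.

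NF-kB feedback and target genes were also mostly highest in animal 139. All 14 listed genes had negative log2 fold changes, with a median of -0.66, and 13 of them were highest in 139. Non-overlapping genotypes were seen in 4 of the 14, all lower in Usp25-/-, against 33.8% of all tested genes in either direction and 14.7% lower, and 0 passed limma at an adjusted p of 0.05. Tnf, the cytokine that gives Tnfaip3 its name, was listed at 305 and 69.2 against 43.7 and 27.1 FPKM (log2 fold change -2.05; limma adjusted p = 0.960). Nfkbiz, an atypical IkB protein, was listed at 391 and 81.5 against 73.2 and 61.0 FPKM. Nfkbia, the classical inhibitor of NF-kB, was listed at 1133 and 542 against 605 and 391 FPKM. Without 139 the median was 0.08, on the other side of 0, but Ccl20 then fell under the filter and was left out. Ccl20 was listed at 0, 1.06 and 0.953 FPKM in 140, 826 and 850.

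The genes of proteins that work with A20 and CYLD varied less. Of 14, 12 had negative and 2 positive values, with a median of -0.24 that became 0.04 without 139. Tnip1, which recruits A20 to ubiquitin chains, had the largest value at -0.99 and was listed at 102 and 19.0 against 26.2 and 18.1 FPKM. Ripk1, the kinase whose chains A20 and CYLD trim, followed at -0.59, with 29.6 and 21.8 against 15.9 and 17.1 FPKM. Its genotypes did not overlap, whereas 140 lay between 826 and 850 for Tnip1. Cyld itself was listed at 10.2 and 3.99 against 4.80 and 6.60 FPKM. The Usp25+/+ animals held both extremes, and its log2 fold change of -0.17 (SE 0.47) turned to 0.41 without 139.

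**Figure D3:**
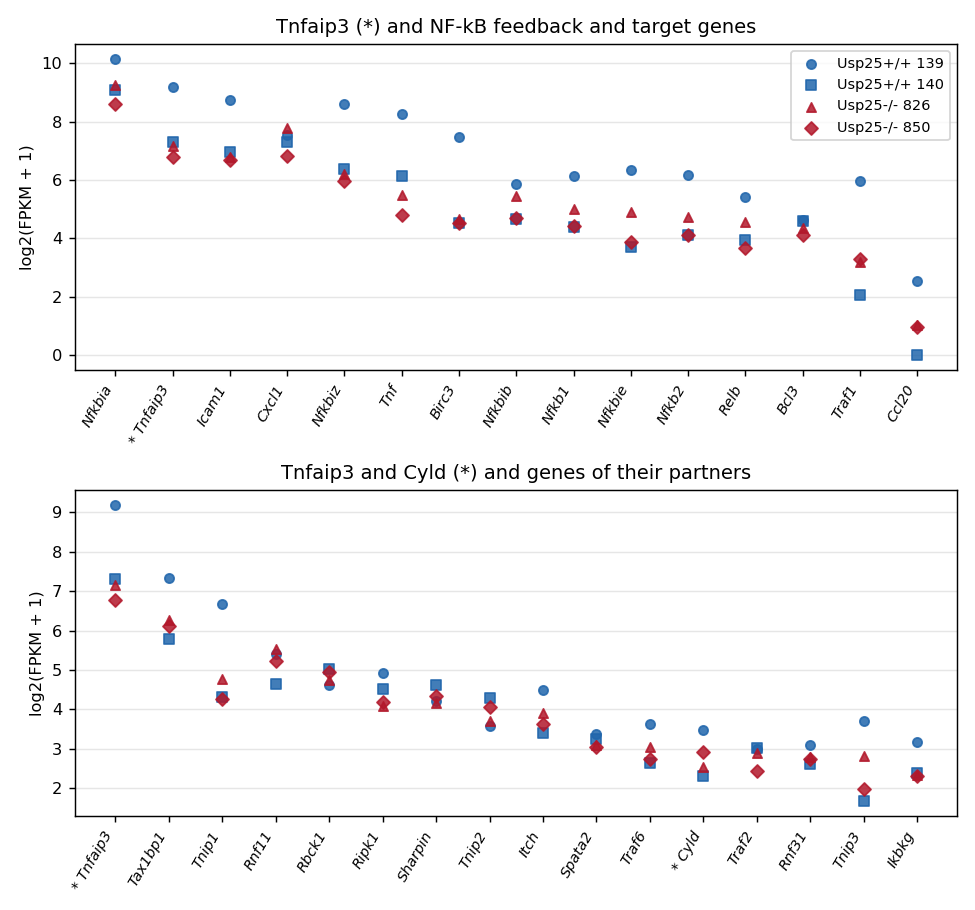
Levels of Tnfaip3 with 14 NF-kB feedback and target genes (top) and of Tnfaip3 and Cyld with 14 genes of their partners (bottom), as log2(FPKM + 1); each mark is 1 library, blue for Usp25+/+ and red for Usp25-/-. Animal 139 (blue circles) is highest for 14 of the 15 genes at the top and for 11 of the 16 at the bottom.

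Otud1, an OTU enzyme that prefers chains linked through lysine 63, had the smallest limma p of the family, at a low level. It had 2.44 and 2.50 against 1.18 and 1.24 FPKM, means of 2.47 ± 0.0448 and 1.21 ± 0.0404 FPKM (SD, n = 2 each). Animals of a genotype were nearly level and the genotypes were far apart. The log2 fold change was -0.65 (SE 0.31; limma adjusted p = 0.960), from -0.67 to -0.64 when any single library was left out. Because the level is low, it depended on the pseudocount, at -0.98 with 0.1 and -0.27 with 5. Otud1 is a single-exon gene on mm9 chromosome 2 from 19579689 to 19582217, and the reads behind these values are unknown.

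Zranb1, the TRABID enzyme that acts on atypical chains, followed animal 139. It was listed at 17.0 and 7.84 against 8.57 and 7.31 FPKM, so that 140, 826 and 850 were close together. The log2 difference was -0.50 (SE 0.42; limma adjusted p = 0.960) and became 0.01 without 139 and -1.01 without 140. Vcpip1, a partner of the p97 ATPase in Golgi reassembly, was listed at 7.16 and 4.89 against 4.76 and 3.92 FPKM, a log2 fold change of -0.38 (SE 0.32) that was -0.15 without 139. Reads of Zranb1 and Vcpip1 may include those of opposite-strand genes, which share 4.31% and 7.54% of their exon bases. Yod1, the other p97-associated OTU enzyme, stayed between 0.780 and 1.11 FPKM. The 12 genes of p97 and its partners split into 6 positive and 6 negative, with a median of 0.06 (0.07 to 0.15 with single libraries left out) and Vcp at 0.42 and Ubxn6 at 0.31 as the largest, and 0 passed limma.

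Otub1 was the second most abundant OTU gene, and its highest library exceeded its lowest by 1.25 times. OTUB1 removes lysine 48-linked chains and also blocks E2 enzymes without cutting. It was listed at 29.7 and 34.3 against 37.1 and 31.2 FPKM, with a log2 fold change of 0.09 (SE 0.29). Its paralog Otub2 was listed at 1.12 and 0.771 against 0.525 and 0.657 FPKM, without overlap but under the filter. Of 11 genes of E2 enzymes and ligases linked to OTUB1, 9 had positive and 2 negative values, with a median of 0.12 (0.08 to 0.23 with single libraries left out). Ube2e2 (0.44) and Ube2v1 (0.22) had the largest.

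The other OTU genes showed overlapping genotypes or very small differences. Otud5, known in mouse and human cells for limiting type I interferon through TRAF3, was listed at 19.5 and 14.2 against 10.2 and 14.8 FPKM (log2 fold change -0.41, SE 0.33). This was -0.20 without 139 and -0.16 without 826, but -0.62 without 140 and -0.65 without 850. Otud4 was listed at 8.73 and 4.17 against 7.06 and 6.48 FPKM, and Otud7b, the Cezanne enzyme specific for lysine 11 chains, at 3.67 and 1.84 against 2.79 and 2.56 FPKM. In both genes the Usp25+/+ animals held both extremes, and their log2 fold changes of 0.13 and 0.01 were 0.59 and 0.37 without 139. Otud3 was listed at 3.01 and 2.58 against 3.54 and 2.07 FPKM, a log2 difference of -0.02, or 0.06 without 139. Otud6b varied least of all members, from 11.2 to 11.5 FPKM, so its formal separation of the genotypes (log2 fold change -0.02) has no size. Otud6b has 2 further loci on mm9, the closest 97.7% identical over 99.9% of a transcript, that could share its reads. Otud7a had 0.0866 FPKM in 139, and the other libraries list it at 0.

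None of the 3 MJD genes passed the test. Josd1 was listed at 6.49 and 8.21 against 8.46 and 9.09 FPKM, without overlap and with a log2 difference of 0.24 (SE 0.28), which was 0.09 without 139. Josd2 was listed at 10.1 and 17.0 against 9.73 and 14.0 FPKM, with more spread within each genotype than between them and a log2 difference of -0.16, or -0.51 without 139. Atxn3, whose human counterpart carries the repeat expanded in Machado-Joseph disease, was listed at 8.12 and 6.30 against 6.03 and 6.60 FPKM. Its log2 fold change was -0.16 (SE 0.29), and 0.0021 without 139.

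Among the JAMM genes, the catalytic subunit of the COP9 signalosome had the largest difference. This complex removes NEDD8 from cullin ubiquitin ligases through COPS5, also called CSN5. Cops5, on mm9 chromosome 1 between bases 10014683 and 10028208, was listed at 23.6 and 30.7 against 40.2 and 39.4 FPKM. The Usp25-/- animals were nearly level, and 140 lay nearer to them than 139 did. The means were 27.2 ± 5.04 and 39.8 ± 0.564 FPKM (SD, n = 2 each), and the log2 fold change was 0.55 (SE 0.30; limma adjusted p = 0.960). It was 0.36 without 139, 0.73 without 140, 0.53 without 826 and 0.56 without 850.

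The rest of the signalosome pointed the same way by smaller amounts. Cops6, its JAMM-type subunit without activity, was listed at 40.2 and 63.7 against 60.7 and 47.1 FPKM, with overlap and a log2 fold change of 0.08 (SE 0.36) that turned to -0.25 without 139. All 7 other subunits had positive values, with a median of 0.21 that lay between 0.19 and 0.29 when single libraries were left out. Non-overlapping genotypes were seen in 3 of the 7, all higher in Usp25-/-, against 19.0% of all tested genes, and 0 passed limma. Cops7a was listed at 21.7 and 32.5 against 46.1 and 30.7 FPKM (0.49), and Cops7b at 3.37 and 5.01 against 6.51 and 5.56 FPKM (0.45). Animal 139 was the lowest library for 7 of all 9 subunits, where it was lowest for 39.2% of all tested genes.

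Eif3f and Eif3h, inactive JAMM-type subunits of the translation initiation factor eIF3, were abundant in all libraries. Eif3f was listed at 77.3 and 110 against 128 and 124 FPKM, without overlap. The log2 difference was 0.44 (SE 0.33; limma adjusted p = 0.960) and became 0.19 without 139 and 0.69 without 140. Eif3h was listed at 123 and 188 against 192 and 152 FPKM, with overlap and a log2 difference of 0.16 (SE 0.37), which was -0.14 without 139. A copy of Eif3h 96.2% identical over 99.6% of a transcript lies on mm9 chromosome 17 and could take some of its reads. Of the 11 other eIF3 subunits, 10 had positive values and 1 a negative value, with a median of 0.22 that was 0.12 without 139 and 0.42 without 140. Eif3m (0.66) and Eif3k (0.58) had the largest, and 139 was the lowest library for 9 of all 13 subunits.

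**Figure D4:**
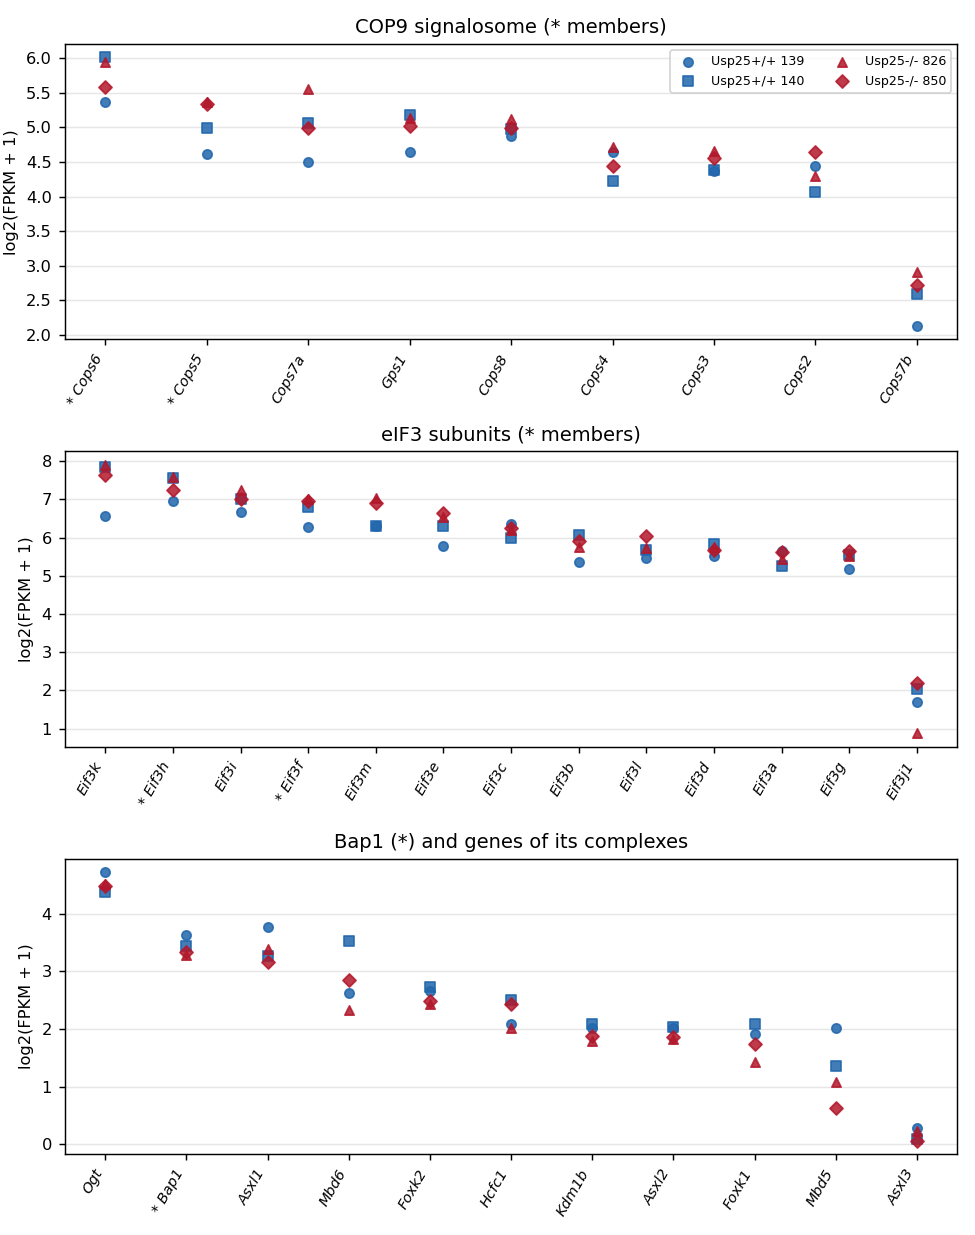
Levels of COP9 signalosome subunits, eIF3 subunits, and Bap1 with genes of its complexes, as log2(FPKM + 1), with the untested Asxl3 at the far right; asterisks mark the genes of the family, blue marks are Usp25+/+ and red marks Usp25-/-. All 9 signalosome subunits and 12 of 13 eIF3 subunits have positive log2 fold changes, and Bap1 with its 9 tested partners all have negative ones.

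The remaining JAMM genes overlapped between the genotypes. Mpnd had 10.3 FPKM in 139, but 22.0, 21.0 and 22.0 FPKM in 140, 826 and 850, so that its log2 fold change of 0.48 (SE 0.42) became -0.03 without 139. Brcc3, the BRCC36 enzyme for lysine 63 chains in DNA repair and interferon receptor turnover, was listed at 4.34 and 9.63 against 4.55 and 4.76 FPKM. Here 140 stood apart, and the log2 fold change of -0.41 (SE 0.41) became 0.08 without 140 and -0.91 without 139. A locus on mm9 chromosome 11, bases 11212442 to 11212953, is 91.4% identical over 94.4% of a transcript and could share reads of Brcc3. The longest Brcc3 transcript has 4310 bases, so that locus covers only part of the gene. Of 6 tested genes of its complexes, 3 were positive and 3 negative, with Shmt2 (0.40) and Fam175a (0.34) the largest. Reads of Cops6, Mpnd and Yod1 may likewise include those of opposite-strand genes, which share 2.53%, 1.65% and 4.03% of their exon bases.

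Mysm1, which acts on histone H2A in blood cell development, was listed at 5.72 and 2.68 against 3.06 and 2.75 FPKM, and Prpf8, a core splicing protein without protease activity, at 17.9 and 11.8 against 10.6 and 13.0 FPKM. In both genes 139 was highest, and without it their log2 fold changes of -0.35 and -0.29 were 0.08 and -0.0075. Of 10 other genes of the U5 snRNP and its tri-snRNP neighbours, 4 were positive and 6 negative, with a median of -0.08 (-0.13 to 0.07 with single libraries left out) and Ddx23 (0.41) and Cd2bp2 (-0.39) the largest. The endosomal enzymes Stambp and Stambpl1 ranged from 5.39 to 8.82 and from 7.85 to 9.22 FPKM. Stambp differed more between 826 and 850 (-0.62 on log2(FPKM + 1)) than between the genotypes. Their log2 fold changes were 0.14 (SE 0.33) and -0.06 (SE 0.27), and that of Stambp was -0.17 without 850. The 7 genes of their ESCRT and clathrin partners had a median of 0.05 (-0.02 to 0.15 with single libraries left out), with Stam (0.49) and Stam2 (-0.15) the largest.

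Other genes of deubiquitinase families outside the USPs, not all of them active enzymes, gave no call either. Of 6 tested, 4 had positive and 2 negative values, with a median of 0.09 (0.07 to 0.22 with single libraries left out). Psmd14, the JAMM enzyme of the proteasome lid, had the largest at 0.44, with 54.4 and 56.8 against 81.4 and 70.6 FPKM and no overlap. Fam63b, now called Mindy2, followed at -0.33.

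Differences between the 2 Usp25+/+ animals exceeded the genotype difference in most members. The absolute difference between 139 and 140 on log2(FPKM + 1) had a median of 0.54 over the 28 members, against 0.21 between 826 and 850 and 0.26 between the genotypes. It was larger than the genotype difference in 21 members (75%), as in 69.1% of all tested genes. The genotype difference compares means of 2 animals and so varies less than a difference of single animals. The sizes are therefore not on equal terms. Animal 139 was the highest library in 12 members and the lowest in 9, against 29.9% and 39.2% of all tested genes. The highest library was 140 in 5, 826 in 7 and 850 in 4 members, against 27.2%, 25.4% and 17.5% of all tested genes. The lowest was 140 in 5, 826 in 8 and 850 in 6, against 23.2%, 24.3% and 12.8%. By family, 139 was highest in 7 of 10 tested OTU genes and lowest in 6 of 10 JAMM genes.

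This difference between the Usp25+/+ animals ran with the length of the transcript. Members with long transcripts, such as Cyld (8022 bases), Mysm1 (7420 bases) and Otud4 (7354 bases), stood higher in 139 than in 140 by 1.16, 0.87 and 0.91 log2 units. Members with short transcripts, such as Uchl3 (1266 bases), Mpnd (1701 bases) and Eif3h (1253 bases), stood lower, with differences of -0.90, -1.02 and -0.61 log2 units. Of the 14 members longer than 3330 bases, 139 was above 140 in 12. Of the 14 shorter ones it was below in 11. The same split of all tested genes with a length put 139 above 140 in 2772 of 4722 longer genes and below in 4094 of 6319 shorter ones. Brcc3 was an exception, with a difference of -0.99 at 4310 bases.

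Across the 28 members, Spearman's rho between length and the 139 to 140 difference was 0.78 (Pearson's r 0.75), and 0.77 without Tnfaip3. Across the 11041 tested genes with an annotated length it was 0.30. The same relation between 826 and 850 gave -0.23 over the members and -0.11 over all genes. The genotype log2 fold change had a rho of -0.43 with length over the members and -0.27 over all genes. Its median was -0.26 in the longer and 0.11 in the shorter members, and -0.08 and 0.13 over all tested genes with a length. The backgrounds given above for partner lists were not matched for length. These relations are descriptions across genes, which are no independent replicates. All points of a relation come from the same libraries, and lengths are those of the longest transcript in GENCODE vM1. Why length and the libraries moved together was not tested.

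**Figure D5:**
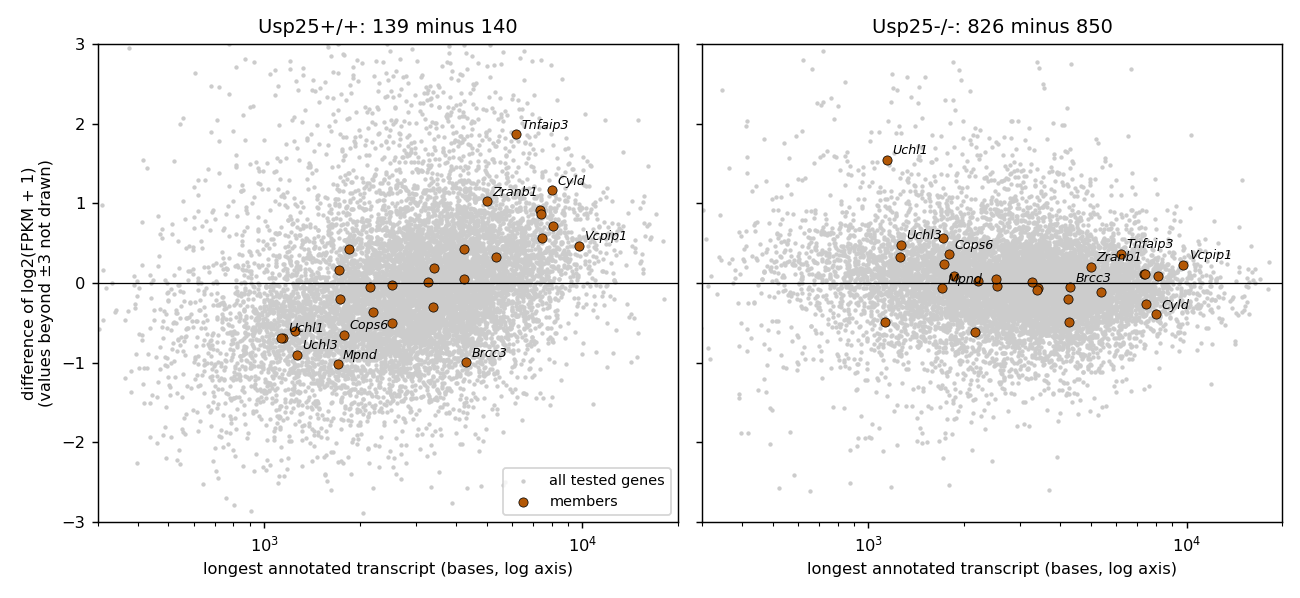
Difference in log2(FPKM + 1) between the animals of a genotype against the longest annotated transcript (log axis), 139 minus 140 on the left and 826 minus 850 on the right; brown points are the 28 tested members and grey points all tested genes with a length, those beyond 3 units left out. Members rise with length on the left (rho 0.78) and show no such rise on the right (rho -0.23).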

How the data were processed

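RNA was measured in 4 libraries, and the deposited values are taken as FPKM made by the authors with Cufflinks, since cutadapt, TopHat2 2.1.1, Cufflinks and the build mm9 appear in the submitters' processing notes. No header states the unit. Per the labels' protocols, the libraries were unstranded. The sources used here give no annotation, filter or depth, so no counting interval can be given.

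Genotypes came from the sample titles, and animal numbers were not shared, so nothing was paired. The 12011 of 24421 genes whose mean reached 1 FPKM were compared on log2(FPKM + 1), a scale that makes changes of low genes look smaller, with limma 3.58.1 in R 4.3.3 (eBayes with trend, two-sided, Benjamini-Hochberg over all tested genes, threshold 0.05). The fit leaves 2 residual degrees of freedom and was tested on simulated data. Every member is named, and for each partner list the 2 largest absolute fold changes, with others chosen after their values were seen. A further partner list is not reported here. Members and lists were chosen with earlier results of these data known. Fam105b, Eif3j and Ube2d2 matched no symbol in the files. Positions and lengths came from GENCODE vM1 (NCBIM37, also called mm9). Copies were found with minimap2 2.31 on the same genome (at least 50% of a coding transcript and 90% identity). Promoters came from RefSeq on GRCm38.p6. Alternatives were other pseudocounts, filters, scalings and variance models, and each library left out; those for partner lists were added after seeing the data.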

Additional observations from a re-analysis of the deposited data

How the results depend on the processing

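No paired analysis was possible because the genotypes share no animal number. Limma called 0 members in all 11 alternatives. With all 4 libraries kept, 27 of 28 log2 fold changes kept their sign. The exception was Otud7b, at -0.0060 with a pseudocount of 5, -0.016 with median-of-ratios scaling and -0.029 with quantile normalization. Only 12 of 28 kept it whichever library was left out. These 12 include the 9 members without overlap, whose sign cannot turn in this way. Such a fit assumes that the lone animal of a genotype varies like the other genotype. Over these 4 fits, members at an unadjusted limma p of 0.05 ranged from 0 to 6 (6 without 140), and members not overlapping from 15 to 24, as 3 libraries overlap less often than 4 (52.8% to 80.8% of all genes). The ranges that crossed 0 were -0.32 to 0.0021 for Atxn3, -0.91 to 0.083 for Brcc3, -0.25 to 0.40 for Cops6, -0.75 to 0.41 for Cyld, -0.14 to 0.47 for Eif3h, -0.51 to 0.19 for Josd2, -0.030 to 0.99 for Mpnd, -0.78 to 0.084 for Mysm1, -0.029 to 0.21 for Otub1, -0.31 to 0.26 for Otud3, -0.33 to 0.59 for Otud4, -0.35 to 0.37 for Otud7b, -0.17 to 0.45 for Stambp, -0.16 to 0.046 for Stambpl1, -1.52 to 0.024 for Uchl1 and -1.01 to 0.012 for Zranb1. The cause was not tested.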
